A study of Homo sapiens with 4 samples.

Results

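MDM2, BBC3, BAX, FAS, TP53I3, SESN1, ZMAT3, GDF15 and RRM2B are 9 genes of the p53 pathway. They were taken by symbol from 57979 genes measured by RNA-seq in 4 libraries labelled HepG2, a human liver cancer cell line. TXNDC9, a thioredoxin domain gene, had been targeted with CRISPR-Cas9 in the cells of 2 libraries, and the other 2 were wild type. All cells were cultured in DMEM with fetal bovine serum and no stress or drug is named in the labels, and polyadenylated RNA was sequenced. The knockout cells carried lentiviral Cas9 with a guide RNA against the first exon of TXNDC9. For protein blots the study sorted cells infected with Cas9 and guide or with the vector alone, but for the RNA libraries no source used here says whether the same sort and control, or a clone, were used. Which of the 2 guides was used and whether the 2 libraries of a group came from separate cultures is not given in the sources used here. The p-values therefore measure only the spread between libraries, which may be technical.

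p53 is a transcription factor that cells accumulate after DNA damage and other stress. MDM2 is the ubiquitin ligase that marks p53 for degradation, and the MDM2 gene is itself switched on by p53 through a second promoter in its first intron, which closes a feedback loop. The other 8 genes are known p53 targets. BBC3 (PUMA), BAX and FAS serve cell death, TP53I3 and SESN1 act in redox and nutrient control, ZMAT3 binds RNA, GDF15 is a secreted stress cytokine and RRM2B supplies deoxynucleotides.

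In the TXNDC9 knockout libraries MDM2 was 3.04-fold lower and BAX was 2.18-fold lower than in the wild type. ZMAT3 was 3.09-fold higher and RRM2B was 3.01-fold higher. BBC3, FAS, TP53I3, SESN1 and GDF15 were not called in either direction. Calls required an adjusted p below 0.01 (limma with Benjamini-Hochberg adjustment over 13246 genes with an average above 1 FPKM) and a change of at least 2-fold. FPKM divides the sequenced fragments of a gene by transcript length and by library size. All 9 genes passed the filter, 2 were called lower beside 15.3% of all tested genes, and 2 were called higher beside 14.2%. Their median log2 fold change was -0.27 and that of all tested genes was -0.09. As a group the 9 genes did not share a direction.

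Several facts of the whole experiment touch these values. TXNDC9 itself measured 35.1 and 37.3 FPKM in the wild type and 21.9 and 27.6 in the knockout, a log2 fold change of -0.55 ± 0.139 (SE, n = 2 libraries per group) with an adjusted p of 0.0145 from limma. In TPM it was 0.12 (adjusted p = 0.449, limma) and after the correction described below -0.44 (adjusted p = 0.0272, limma), so its direction depended on the scale. TPM raised every gene by about 0.67, and TXNDC9 lay below the median of all genes on each scale. Its transcript was still present in the libraries labelled knockout. RNA level alone is a weak check of small coding deletions. The 8 hepatocyte markers examined were near 0 in all 4 libraries, with none above 1 FPKM and a summed level of 0.351 and 0.716 FPKM in the wild type and 0.0479 and 0.121 in the knockout. ALB, APOA1 and HNF4A did not exceed 0.0628 FPKM in any library, which goes against the HepG2 label, and AFP reached 0.449 FPKM at most. The 6 fibroblast markers summed to 54.1 and 49.6 FPKM in the wild type and 38.4 and 34.5 in the knockout, of which COL1A1 and COL3A1 made up most while COL1A2 was listed at 0 in all 4 libraries and PDGFRB was called higher in the knockout (log2 fold change 1.55). The 4 leukocyte markers summed to 3.65 and 5.73 FPKM against 6.04 and 7.17, nearly all CD68. The 3 endothelial markers summed to 0.803 and 1.22 FPKM against 4.41 and 3.42, and CDH5, which made up most of this, was called higher in the knockout (log2 fold change 1.92). The part of these markers in the results for the 9 genes was not tested. The FPKM of all genes summed to 805816 and 971102 in the wild type and to 535973 and 568279 in the knockout. Long and AT-rich transcripts were higher, and short and GC-rich ones lower, in the knockout. Spearman's rho across 13112 genes was 0.49 between log2 fold change and transcript length and -0.46 between log2 fold change and GC content. Genes share libraries and are not independent replicates. Fold changes of the 9 genes and most of their partners are therefore also given as TPM, which gives every library an equal total, and after removing the trend with length and GC content within each library, called the correction below.

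p53 binds a pair of adjacent decamers whose core C and G are nearly invariant. Pairs with the core C and G intact and up to 2 mismatches from the p53 consensus were searched on both strands. The search covered 2000 bases to either side of the canonical transcript start of each tested gene, a window chosen after the expression values were known. Such a pair was present near 5 of the 9 genes and near 2.99% of all 13112 genes searched. With no mismatch allowed, ZMAT3 remained, beside 0.061% of all genes. The 5 pairs are shown because they are the closest matches near these genes to the site that p53 is known to bind. Capitals mark bases that match the consensus and lower case marks mismatches.
MDM2: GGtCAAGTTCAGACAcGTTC
BAX: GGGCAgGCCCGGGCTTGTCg
FAS: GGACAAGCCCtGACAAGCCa
ZMAT3: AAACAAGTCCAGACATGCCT
GDF15: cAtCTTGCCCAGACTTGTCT

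On hg38 the MDM2 pair lay on the plus strand at chr12:68808923-68808942, in intron 1 and 755 bases after the first start site. The BAX pair lay at chr19:48955213-48955232, in intron 1 of the canonical transcript and 347 bases after its start, where 1 annotated exon of another BAX transcript overlaps it. The FAS pair lay at chr10:88991309-88991328, in intron 1 of the canonical transcript and 520 bases after its start, where 8 annotated exons of other FAS transcripts overlap it. The ZMAT3 pair lay on the minus strand at chr3:179070188-179070207, in intron 1 and 1611 bases after the start. The GDF15 pair lay at chr19:18385308-18385327, at position -841 from the start. Genes called lower (MDM2 and BAX), called higher (ZMAT3) and not called (FAS and GDF15) all carried a pair. BBC3, TP53I3, SESN1 and RRM2B had none of these letters in the window.

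The MDM2 pair began 94 bases before the second start site at position 68809017. The stretch from chr12:68808867-68809001, plus strand of GRCh38.p14, is shown because it is the region through which p53 is known to switch on MDM2. Here capitals mark the pair only.
MDM2 intron 1: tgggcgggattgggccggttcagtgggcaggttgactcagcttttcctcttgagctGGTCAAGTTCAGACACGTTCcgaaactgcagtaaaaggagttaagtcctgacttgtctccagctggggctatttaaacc

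RefSeq gives 16 promoters, from 250 bases before to 50 after a start site, for 8 of the 9 genes. An adjacent pair was found in 3 of the 16 (2 of MDM2 and 1 of FAS) and in 0.285% of all 35116 promoters. The 2 MDM2 windows overlap and hold the same pair, and the MDM2 and FAS pairs are those shown above. A single decamer without mismatch was found in 2 of the 16 (1 of FAS and 1 of SESN1) and in 6.63% of all promoters. The FAS decamer is part of the FAS pair. A spaced pair without mismatch, with 0 to 13 bases between the decamers, was found in none of the 16 and in 0.0285% of all. The E-box CACGTG, which reads the same on both strands and is bound by MYC among others, was found in the promoter of BBC3 once and in that of BAX 4 times, and in 7.26% of all promoters.

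The order of the levels changed between the conditions. In the wild type the means ran from BAX through MDM2, GDF15, TP53I3, ZMAT3, SESN1, FAS and BBC3 to RRM2B, and among neighbours in this order only BAX and MDM2 overlapped between libraries. In the knockout the order was BAX, ZMAT3, GDF15, MDM2, TP53I3, SESN1, RRM2B, FAS and BBC3, and only SESN1 and RRM2B overlapped. MDM2 moved from rank 2 to rank 4, ZMAT3 from 5 to 2 and RRM2B from 9 to 7. In all 9 genes the libraries of the groups did not overlap. Both knockout values lay below both wild-type values in 5 genes, beside 45.9% of all tested genes, and above them in 4, beside 40.1%.

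**Figure D1:**
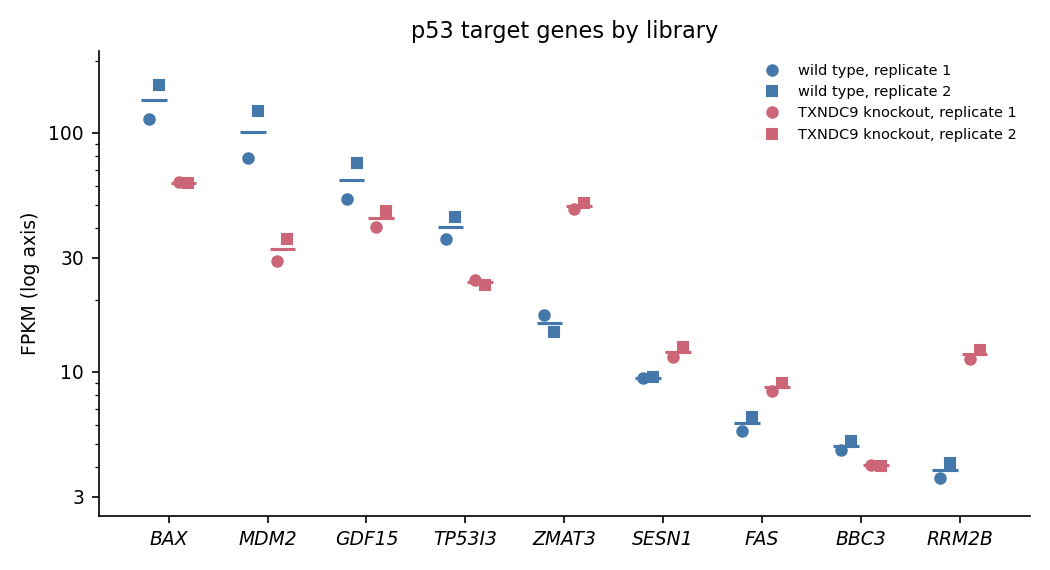
FPKM (log axis) of the 9 genes in each of the 4 libraries, with wild type in blue, TXNDC9 knockout in red, circles for replicate 1, squares for replicate 2 and bars for group means (n = 2). MDM2 and BAX sit far below the wild type in the knockout, and ZMAT3 and RRM2B sit far above it.

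MDM2 (ENSG00000135679) spans chr12:68808177-68845544 on the plus strand, and its canonical transcript has 11 exons and 7490 nt, of which 1491 are coding. It measured 78.6 and 123.5 FPKM in the wild type and 29.1 and 36.0 FPKM in the knockout. Wild-type replicate 2 was 1.57 times replicate 1, and both stood above either knockout library. The log2 fold change was -1.60 ± 0.234 (SE, n = 2 per group) with an adjusted p of 0.00208 from limma. Leaving out 1 library at a time kept it between -1.93 and -1.28. Rescaled to TPM the log2 fold change was -0.92 with an adjusted p of 0.0018, below the 2-fold threshold.

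MDM2 went against the trend with length and GC content. Its canonical transcript has 39.5% GC. Among the 2178 tested genes with transcripts of at least 3000 nt and at most 42% GC, limits set after the values were seen, 1.47% were called lower, 38.2% were called higher and the median log2 fold change was 0.80. Of these genes 10 (0.459%) were as low as MDM2, itself included. After the correction the log2 fold change of MDM2 was -2.58 ± 0.233 with an adjusted p of 0.00144 from limma. Only 0.389% of genes had a lower corrected value. MDM2 was the only one of the 9 called after the correction, beside 6.23% of all genes called lower and 6.97% called higher.

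**Figure D2:**
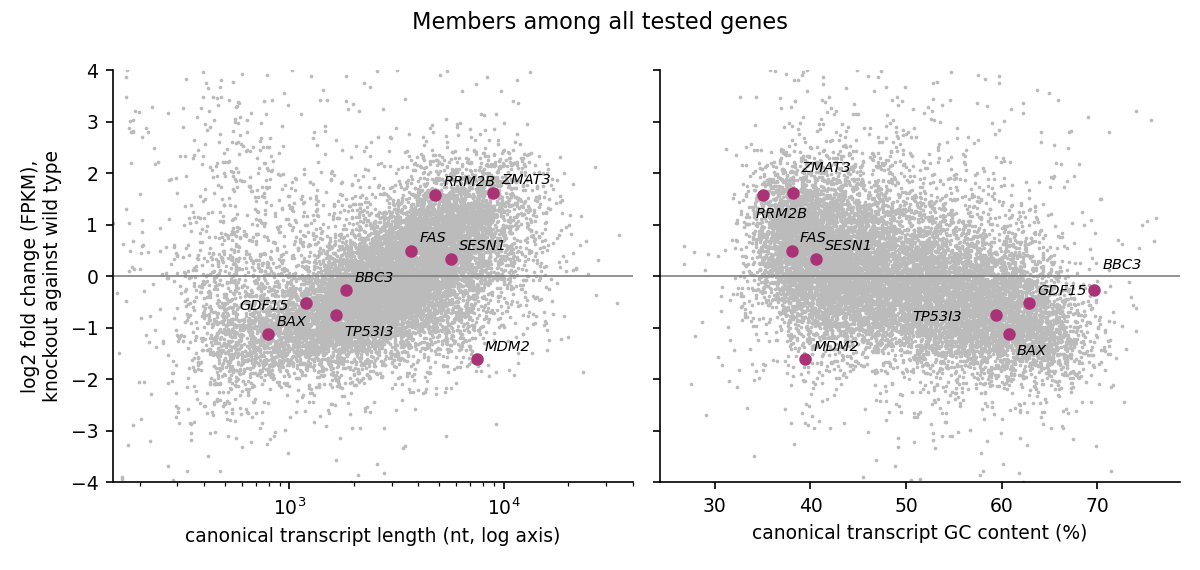
Log2 fold change of knockout against wild type on the FPKM scale for tested genes (grey) against canonical transcript length in nt (log axis, left) and GC content in percent (right), with the 9 genes labelled. Points beyond the axes are not drawn. FAS, SESN1, ZMAT3 and RRM2B lie with the long AT-rich transcripts, BBC3, BAX, TP53I3 and GDF15 with the short GC-rich ones, and MDM2 lies near the lower edge of the long transcripts.

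Other annotated genes overlap MDM2, and the use of strand in counting is not given in the sources used here. A processed pseudogene on the same strand (ENSG00000256664) measured 11.01 and 9.21 FPKM in the wild type and 14.1 and 13.5 in the knockout. A long non-coding RNA on the opposite strand (ENSG00000257181) measured 14.8 and 11.3 FPKM against 14.1 and 16.3. In neither were both knockout libraries below both wild-type libraries, and their levels were under those of MDM2 in every library. Fewer cells with MDM2 transcripts and less MDM2 RNA per cell cannot be told apart in bulk RNA, here or for any gene below.

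MDM4, the close relative of MDM2 that blocks p53 without degrading it, measured 4.93 and 4.24 FPKM in the wild type and 7.90 and 8.64 in the knockout. Its log2 fold change of 0.84 ± 0.134 had an adjusted p of 0.00282 from limma and was under 2-fold. In TPM MDM4 was called higher at 1.52 (adjusted p = 6.74e-04, limma), and after the correction it stood at -0.17 (adjusted p = 0.277, limma). Of all tested genes 33.1% were called higher in TPM. The ratio of MDM2 to MDM4 within a library was 15.95 and 29.15 in the wild type and 3.69 and 4.17 in the knockout. On the log2 scale this ratio differed by -2.44 between the groups, and by -2.41 after the correction. Rescaling to TPM does not touch a ratio within a library. PPM1D, a phosphatase that dampens p53, had a log2 fold change of 0.87 (adjusted p = 0.00133, limma), also under 2-fold. It was called higher in TPM at 1.55 and stood at 0.35 after the correction. USP7, the deubiquitinase of p53 and MDM2, measured 38.6 and 35.4 FPKM against 42.5 and 43.5 and was not called on any of the 3 scales (0.22 in FPKM, 0.90 in TPM and -0.29 corrected).

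Of 20 p53 regulators, 19 were tested, 1 was called lower (5.26%, beside 15.3% of all tested genes) and 3 were called higher (15.8%, beside 14.2%). AIMP2, a scaffold of the tRNA synthetase complex, fell by 1.06 on the log2 scale. The acetyltransferases EP300 and CREBBP, which act as coactivators of p53, rose by 2.19 and 1.55, and TP53BP2 (ASPP2), which directs p53 to death genes, rose by 1.13. After the correction EP300 at 1.54 and CREBBP at 1.14 were still called, beside 6.97% of all genes called higher. The median of the list was 0.48 on the FPKM scale and -0.11 after the correction. The canonical transcripts of these regulators had a median length of 4768 nt beside 2866.5 nt over all tested genes.

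The 8 ribosomal proteins known to bind MDM2 were also examined, since free ribosomal proteins hold MDM2 back from p53. All were tested, and limma called 5 lower (62.5%, beside 15.3% of all tested genes). It called 0 higher (0 also at an unadjusted p under 0.05), beside 14.2%, and the median log2 fold change was -1.17. RPL11 fell by 1.65, RPS27 fell by 1.62 and RPL23 fell by 1.32. After the correction the median was -0.87 and 3 were called lower, RPL11, RPL23 and RPS27L, beside 6.23% of all genes. RPS27 stood at -0.89 and was not called on that scale. RPS27L, a p53 target among them, measured 165 and 239 FPKM against 159 and 183, so the groups overlapped in FPKM. It stood at -1.02 after the correction. The correction took RPS27L as 6110 nt with 252 coding bases and RPL23 as 2706 nt with 420, from their canonical transcripts. Whether the cells expressed these transcripts or shorter ones was not tested, so both corrected calls are uncertain. Short ribosomal protein genes have many processed pseudogenes with nearly the same sequence, which makes their FPKM uncertain.

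BAX (ENSG00000087088), the protein that opens the outer mitochondrial membrane, spans chr19:48954815-48961798 on the plus strand. It measured 114.5 and 158.3 FPKM in the wild type and 61.9 and 61.5 FPKM in the knockout. The knockout libraries were nearly equal, and the wild-type libraries differed by 1.38 times. The log2 fold change was -1.12 ± 0.171 (SE, n = 2 per group) with an adjusted p of 0.00236 from limma. Without wild-type replicate 2 it was -0.89 and no longer called. Rescaled to TPM it was -0.44 (adjusted p = 0.00907, limma), under 2-fold.

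The fall of BAX in FPKM was near the median of short GC-rich transcripts. Its canonical transcript of 795 nt with 60.8% GC is the shortest of the 9. Among the 1250 tested genes with transcripts of at most 2000 nt and at least 58% GC, 52.5% were called lower and 4% higher. The median log2 fold change of these genes was -1.12. The limits were set after the values were seen, and BAX is itself among these genes. After the correction BAX stood at 0.03 ± 0.0754 with an adjusted p of 0.761 from limma, so no change was detectable on that scale. The part of length and GC content in the FPKM result was not tested.

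BBC3 (ENSG00000105327), a BH3-only activator of BAX better known as PUMA, spans chr19:47220822-47232766 on the minus strand. It measured 4.69 and 5.13 FPKM in the wild type and 4.07 and 4.04 FPKM in the knockout. The knockout values were slightly lower, with a log2 fold change of -0.27 ± 0.132 and an adjusted p of 0.119 from limma. With 69.7% GC over 1846 nt, BBC3 is the most GC-rich of the 9. The sign turned on the other scales, to 0.40 (adjusted p = 0.083, limma) in TPM and to 0.90 ± 0.118 (adjusted p = 0.00334, limma, under 2-fold) after the correction. TPM raised every gene by about 0.67, and BBC3 lay below the median of all genes on both the FPKM and the TPM scale.

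BAX and BBC3 act against BCL2L1 (BCL-XL) and MCL1, which protect the mitochondrial membrane. BCL2L1 measured 20.3 and 22.8 FPKM in the wild type and 17.8 and 19.2 in the knockout, a log2 fold change of -0.22 (0.46 in TPM and 0.21 corrected, not called). MCL1 measured 63.4 and 60.7 FPKM against 104.8 and 103.1, a log2 fold change of 0.74 with an adjusted p of 0.00163 from limma, under 2-fold. MCL1 was called higher in TPM at 1.42, beside 33.1% of all tested genes, and stood at 0.37 after the correction. The ratio of BAX to MCL1 was 1.81 and 2.61 in the wild type and 0.590 and 0.597 in the knockout. The ratio of BAX to BCL2L1 was 5.65 and 6.96 against 3.48 and 3.21. BBC3 to MCL1 was 0.0739 and 0.0844 against 0.0389 and 0.0392. All 3 ratios were lower in both knockout libraries on this scale, and they carry the differences in transcript length and GC content between the genes. On the log2 scale BAX to MCL1 differed by -1.87 and BAX to BCL2L1 by -0.91, and after the correction by -0.34 and -0.18. BBC3 to MCL1 turned from -1.01 to 0.52. BAK1, the partner of BAX in the membrane, had a log2 fold change of 0.15 (0.83 in TPM and 0.79 corrected) and was not called. The BH3-only gene PMAIP1 (NOXA) had one of 0.56 and was called in TPM at 1.24 but not after the correction, at 0.51.

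Of 21 genes of the BCL2 family and the apoptosome, 19 were tested. Of these 4 were called lower (21.1%, beside 15.3% of all tested genes) and 1 higher (5.26%, beside 14.2%). The sensitizers BAD and BIK fell by 1.53 and 1.31, CASP9, the caspase that the apoptosome activates, fell by 1.46, and DIABLO, which releases caspases from XIAP, fell by 1.06 and was the smallest of the 4. APAF1, the core of the apoptosome and a p53 target itself, rose by 1.40. The list median was 0.15. After the correction 1 gene, CASP9 at -1.29, was called, beside 6.23% of all genes called lower and 6.97% called higher.

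FAS (ENSG00000026103), the death receptor, spans chr10:88953813-89029605 on the plus strand. It measured 5.67 and 6.48 FPKM in the wild type and 8.31 and 8.98 FPKM in the knockout. Both knockout libraries were higher, with a log2 fold change of 0.50 ± 0.125 and an adjusted p of 0.0142 from limma, and FAS was not called. In TPM it was called higher at 1.18 (adjusted p = 5.4e-04, limma), beside 33.1% of all tested genes. After the correction it stood at -0.04 ± 0.109 (adjusted p = 0.775, limma). STAMBPL1, which overlaps FAS on the same strand, measured 25.6 and 26.8 FPKM against 16.01 and 17.95 and went the other way.

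None of the 10 tested genes of FAS signalling, from a list of 12, was called in either direction by limma. Over all tested genes 15.3% were called lower and 14.2% higher. At an unadjusted p under 0.05, 2 of the list were lower and 4 higher. BID and DAXX (lower) and FADD, TNFRSF10A and TNFRSF10B (higher) also had an adjusted p below 0.01 but were under 2-fold. FADD, the adaptor that FAS recruits, measured 6.48 and 6.95 FPKM against 11.8 and 11.7, a log2 fold change of 0.80 with an adjusted p of 0.00153 from limma. It was under 2-fold on this scale and was the single gene of the list called after the correction, at 1.57, beside 6.97% of all genes called higher. CASP8, the caspase that FADD binds, had a log2 fold change of 0.50 and the TRAIL receptor TNFRSF10B one of 0.60, neither called. Both were called higher in TPM, at 1.18 and 1.28, as was FADD at 1.48, beside 33.1% of all tested genes. After the correction CASP8 stood at 0.37 and TNFRSF10B at 0.40. The ratio of FAS to TNFRSF10B was 0.178 and 0.218 in the wild type and 0.181 and 0.189 in the knockout, and the groups overlapped, whereas after the correction its log2 value differed by -0.44 between the groups without overlap. FASLG, the ligand, did not exceed 0.0177 FPKM in any library.

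TP53I3 (ENSG00000115129), a quinone oxidoreductase also called PIG3, spans chr2:24077433-24085861 on the minus strand. It measured 35.8 and 44.5 FPKM in the wild type and 24.3 and 23.1 FPKM in the knockout. The log2 fold change of -0.75 ± 0.134 had an adjusted p of 0.00421 from limma, but at 1.68-fold it was under the fold threshold. In TPM it was -0.07 (adjusted p = 0.6, limma) and after the correction 0.11 (adjusted p = 0.318, limma). TP53I3 has a transcript of 1653 nt with 59.4% GC.

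SESN1 (ENSG00000080546), a sestrin that restrains mTORC1 through the GATOR complexes and limits peroxides, spans chr6:108984309-109094846 on the minus strand. It measured 9.44 and 9.46 FPKM in the wild type and 11.5 and 12.7 FPKM in the knockout. The wild-type libraries were almost equal and both knockout libraries were higher, with a log2 fold change of 0.35 ± 0.107 and an adjusted p of 0.0301 from limma. In TPM it was called higher at 1.03 (adjusted p = 0.00105, limma), beside 33.1% of all tested genes. After the correction it stood at -0.44 (adjusted p = 0.0123, limma), so the sign depended on the scale.

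SESN2, the stress-induced sestrin, measured 5.70 and 6.08 FPKM in the wild type and 3.84 and 4.03 in the knockout, a log2 fold change of -0.57 with an adjusted p of 0.00941 from limma, under 2-fold. In TPM SESN2 was at 0.10 (adjusted p = 0.639, limma) and after the correction at -0.21 (adjusted p = 0.17, limma). The ratio of SESN1 to SESN2 was 1.65 and 1.56 in the wild type and 2.99 and 3.14 in the knockout, a log2 difference of 0.92 that turned to -0.23 after the correction. The SESN2 transcript is shorter and more GC-rich (3462 nt, 59.6% GC) than that of SESN1 (5664 nt, 40.6% GC). SESN3 did not exceed 0.102 FPKM and was not tested. Of 12 sestrin and GATOR partners, 11 were tested. Of these 4 were called lower (36.4%, beside 15.3% of all tested genes) and 2 higher (18.2%, beside 14.2%). WDR24 of GATOR2 fell by 1.71, NPRL2 and NPRL3 of GATOR1 each fell by 1.26, and SEC13 of GATOR2 fell by 1.08. PRKAA1 and PRKAA2, the catalytic subunits of AMP kinase, rose by 1.73 and 1.19. After the correction 1 was called, WDR24 at -1.08, beside 6.23% of all genes called lower and 6.97% called higher.

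ZMAT3 (ENSG00000172667), a zinc finger protein that binds RNA and controls splicing, spans chr3:178960121-179072215 on the minus strand. It measured 17.2 and 14.6 FPKM in the wild type and 48.1 and 50.5 FPKM in the knockout. Each knockout library was far above both wild-type libraries, with a log2 fold change of 1.63 ± 0.119 and an adjusted p of 5.2e-04 from limma. In TPM the log2 fold change was 2.31. Its canonical transcript is the longest of the 9, at 8936 nt with 38.2% GC and 867 coding bases. After the correction the log2 fold change was 0.53 (adjusted p = 0.00956, limma), under 2-fold, with the direction kept.

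MDM2 and ZMAT3 have transcripts of 7490 and 8936 nt with 39.5% and 38.2% GC. Both carry a p53 pair in intron 1, with 2 mismatches in MDM2 and 0 in ZMAT3. MDM2 was lower and ZMAT3 higher in the knockout, and the cause was not tested. The ratio of MDM2 to ZMAT3 was 4.56 and 8.45 in the wild type and 0.605 and 0.713 in the knockout, a log2 difference of -3.23 that was -3.11 after the correction. MDM2 was thus the more abundant transcript in both wild-type libraries and the less abundant in both knockout libraries. The ratio of MDM2 to BAX was 0.686 and 0.781 against 0.471 and 0.585, a log2 difference of -0.48 that was -2.61 after the correction.

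RRM2B (ENSG00000048392), the p53-inducible small subunit of ribonucleotide reductase, has 9 exons and a transcript of 4774 nt with 35.1% GC, the lowest GC content of the 9. It measured 3.61 and 4.14 FPKM in the wild type and 11.3 and 12.3 FPKM in the knockout. Both knockout libraries were higher, with a log2 fold change of 1.59 ± 0.129 and an adjusted p of 5.41e-04 from limma. In TPM the log2 fold change was 2.27, and after the correction it was 0.75 (adjusted p = 0.00506, limma), under 2-fold. In FPKM its group difference was close to that of ZMAT3 (1.63), but between the wild-type libraries RRM2B and ZMAT3 moved in opposite directions. The ratio of RRM2B to ZMAT3 was 0.209 and 0.284 in the wild type and 0.236 and 0.244 in the knockout, so the groups overlapped. After the correction the log2 ratio was higher by 0.23 in the knockout and the groups no longer overlapped.

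RRM1, the large subunit of the reductase, measured 487 and 519 FPKM in the wild type and 550 and 571 in the knockout, and RRM2, the small subunit of dividing cells, 102 and 111 against 98.4 and 104. Neither was called on any of the 3 scales, with log2 fold changes of 0.16 and -0.07 in FPKM, 0.84 and 0.61 in TPM, and -0.10 and -0.37 after the correction. The ratio of RRM2B to RRM2 was 0.0353 and 0.0374 in the wild type and 0.115 and 0.118 in the knockout, a log2 difference of 1.66 that was 1.12 after the correction, so RRM2 stayed the main small subunit at the RNA level in all 4 libraries. Of 9 genes of the reductase and deoxynucleotide supply, all were tested. By limma 2 were called lower (22.2%, beside 15.3% of all tested genes) and 0 higher, beside 14.2%. The 2 that were higher at an unadjusted p under 0.05, DCK and SAMHD1, also had an adjusted p below 0.01 but were under 2-fold. Thymidine kinase TK1 fell by 1.27 and deoxyguanosine kinase DGUOK fell by 1.23. After the correction limma called 0 of the 9, with 4 lower and 4 higher at an unadjusted p under 0.05. RRM2, DUT and DGUOK were lower with an adjusted p below 0.01 but were under 2-fold.

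GDF15 (ENSG00000130513), the secreted cytokine of the TGF-beta family, spans chr19:18374731-18389176 on the plus strand. It measured 52.7 and 74.5 FPKM in the wild type and 40.4 and 47.2 FPKM in the knockout. Both knockout libraries were lower, but wild-type replicate 2 was 1.41 times replicate 1, and the log2 fold change of -0.52 ± 0.188 had an adjusted p of 0.0508 from limma. In TPM it was 0.16 (adjusted p = 0.283, limma), and after the correction 0.62 (adjusted p = 0.008, limma), under 2-fold and in the other direction. Its transcript of 1200 nt has 62.9% GC.

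**Figure D3:**
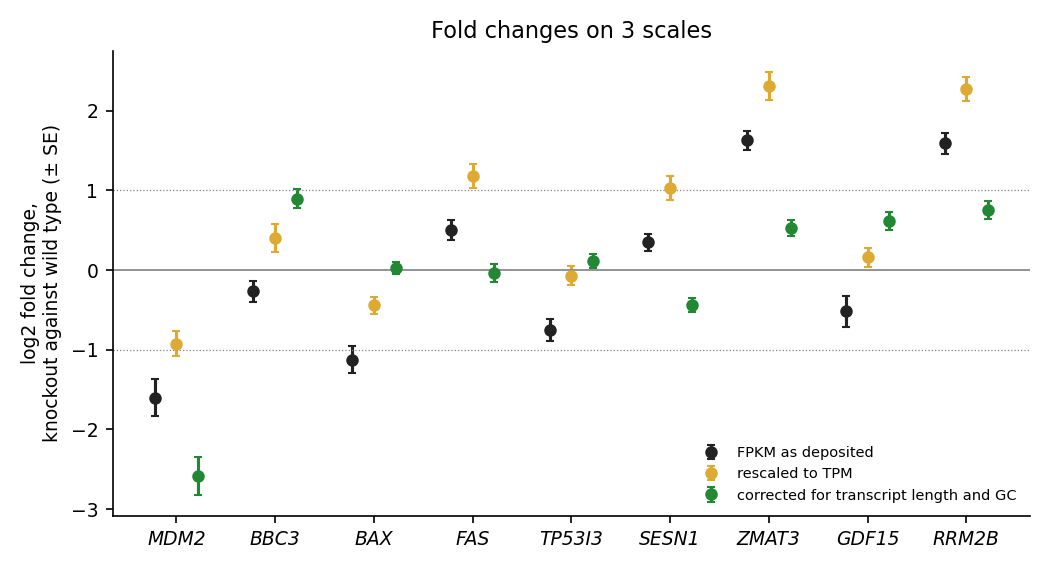
Log2 fold change of knockout against wild type (± SE, n = 2 libraries per group) for each of the 9 genes on the FPKM scale (black), rescaled to TPM (yellow) and corrected for transcript length and GC content (green), with dotted lines at 2-fold. MDM2 is below 0 on all 3 scales, ZMAT3 and RRM2B are above 0 on all 3, and the other 6 change sign on at least 1 scale.

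Read across the scales, MDM2 was lower and ZMAT3 and RRM2B were higher each time, while the sign of the other 6 turned on at least 1 scale. In TPM, which moved the median of all tested genes from -0.09 to 0.59, limma called 0 of the 9 lower beside 3.37% of all genes (2 at an unadjusted p under 0.05) and 4 higher beside 33.1%. The 2 lower genes, MDM2 and BAX, also had an adjusted p below 0.01 but were under 2-fold. Relative to that shifted median, MDM2 at -0.92 was lower still. After the correction limma called 1 of the 9 lower and 0 higher (4 at an unadjusted p under 0.05), and their median was 0.11 beside 0.01 for all genes. The 4 higher genes, BBC3, ZMAT3, GDF15 and RRM2B, also had an adjusted p below 0.01 but were under 2-fold.

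Other p53 target genes also included calls in both directions. Of 58 in the list, 49 were tested, 5 were called lower (10.2%, beside 15.3% of all tested genes) and 4 higher (8.16%, beside 14.2%), and the median of -0.09 matched that of all tested genes at 2 decimals. SERTAD1, a cell cycle regulator, fell by 1.79, the peroxidase GPX1 fell by 1.75 and SAC3D1 fell by 1.28, while NINJ1 and TNFRSF10C fell less. CCNG2, a cyclin that restrains the cycle, rose by 1.89, APAF1 by 1.40 and the translesion polymerase POLH by 1.11, and the kinase PLK2 rose by 1.01. After the correction 3 were called lower (SERTAD1, FBXO22 and RPS27L, beside 6.23% of all genes) and 1 higher (ORAI3, beside 6.97%). Of these only SERTAD1 had been called on the FPKM scale. The correction took FBXO22 as 10707 nt and RPS27L as 6110 nt, and whether the cells expressed these canonical transcripts was not tested. FBXO22, RPS27L and ORAI3 were named after their values were seen.

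The other targets fixed as partners were not called on the FPKM scale. CCNG1 measured 92.7 and 106 FPKM in the wild type and 72.5 and 83.1 in the knockout, a log2 fold change of -0.35 that was 0.33 in TPM and -0.55 (adjusted p = 0.00478, limma, under 2-fold) after the correction. PHLDA3, an inhibitor of AKT, had -0.29, the repair genes DDB2 and XPC had -0.19 and 0.37, the fructose bisphosphatase TIGAR had 0.22 and the nuclease AEN had -0.13. In TPM, XPC was called higher at 1.05 (adjusted p = 0.0019, limma), beside 33.1% of all tested genes, and the other 5 were not called. After the correction none of the 6 was called, and TIGAR stood at -0.75 (adjusted p = 0.00282, limma, under 2-fold).

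**Figure D4:**
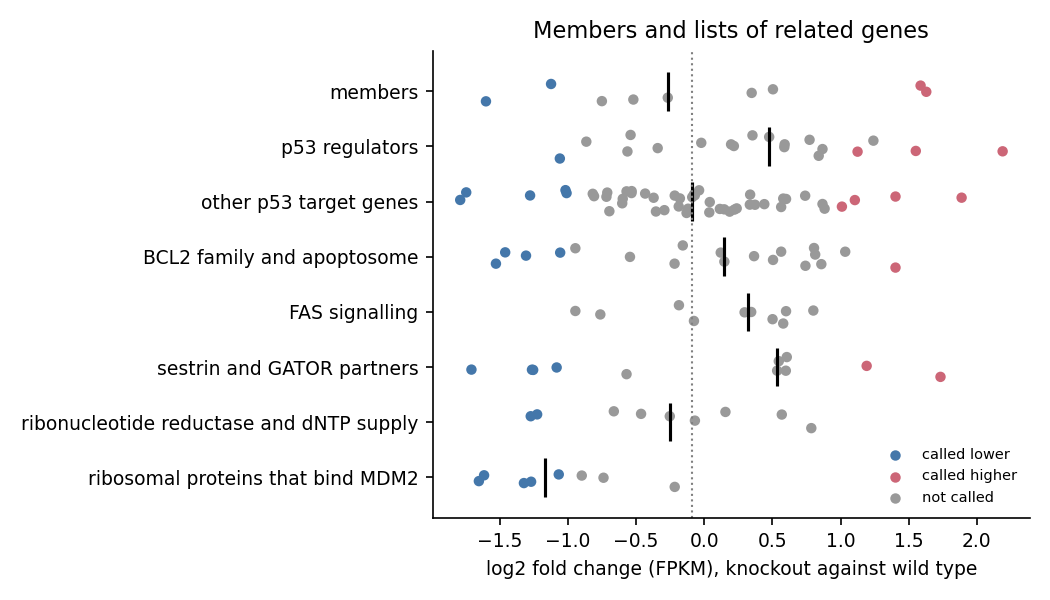
Log2 fold change on the FPKM scale for the tested genes of each list, one point per gene (blue called lower, red called higher, grey not called), with a bar at the list median and a dotted line at the median of all tested genes (-0.09). Vertical position within a list is arbitrary. The ribosomal proteins lie to the left, and the 9 genes and the other p53 targets spread to both sides.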

How the data were processed

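Polyadenylated RNA of 2 wild-type and 2 TXNDC9 knockout libraries was sequenced on an Illumina HiSeq X instrument. Reads were mapped by the authors to hg38 with TopHat2 and an Ensembl annotation, and the deposited FPKM values per gene and library came from Cuffdiff of Cufflinks. The sources used here give no tool versions, library normalization or strand setting. The deposited p-value and q-value columns and fold changes hold the authors' own comparison and were not used. No counts were used, so depth is unknown and no counting interval is given.

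Each gene identifier occurred 4 times in the table and was out of register with the symbols. Row order restored it, and the identifier had the same symbol in GENCODE release 44 for all 9 genes. The groups came from the sample labels. log2(FPKM + 0.1) was fitted with limma 3.58.1 in R 4.3.3 (trend in the prior variance) over the 13246 genes with an average above 1 FPKM, and p-values were Benjamini-Hochberg adjusted. Calls needed an adjusted p below 0.01 and a 2-fold change, after the thresholds of the study's methods. Fold changes are on the log2(FPKM + 0.1) scale, which understates changes of low genes. With 2 libraries per group an exact permutation test cannot go below a two-sided p of 0.333, so none was used. Length and GC content of GENCODE canonical transcripts were available for 13112 genes, and the correction subtracted a loess curve (span 0.3) from each library. Whether the canonical transcript of a gene was the one expressed was not tested. The fit was also run on simulated data with far fewer changed genes, with or without a trend with length and with none with GC content. That setting differs from these data, so it cannot check the results here. Consensus pairs were sought in hg38 and in RefSeq promoters (GRCh38.p14).

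The 9 genes and all lists were chosen with earlier results of these data known. The genes named are the 9, TXNDC9, up to 3 called genes of each list in each direction by size of change, and 20 fixed partners. Any other was named after its values were seen. The alternatives comprised other pseudocounts (1 or 0.01) and filters (none, or an average above 5 FPKM), a threshold of 0.05, fold change alone, TPM, median centring, no trend, the replicate block, the correction and each library left out.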

Additional observations from a re-analysis of the deposited data

How the results depend on the processing

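MDM2 kept its direction in all 14 alternatives, with log2 fold changes from -2.58 to -0.92, as did ZMAT3 (0.53 to 2.31) and RRM2B (0.75 to 2.27). The filters, the variance trend and the block do not alter a fold change. Leaving out 1 library cannot turn the sign where the groups do not overlap. MDM2 was no longer called in TPM, and ZMAT3 and RRM2B were no longer called after the correction. With transcript length and GC content corrected for, 1 of the 9 genes was called lower and 0 higher, with or without the replicate block. Over all genes the counts were 817 lower and 914 higher with the correction, and 820 and 903 with the block added. The sign turned to 0.90 for BBC3, 0.029 for BAX, -0.040 for FAS, 0.11 for TP53I3, -0.44 for SESN1 and 0.62 for GDF15, again with or without the block. In TPM 0 of the 9 were called lower and 4 higher, over all genes 447 lower and 4380 higher, and the sign turned to 0.40 for BBC3 and 0.16 for GDF15. TPM raised all genes by about 0.67, and both genes lay below the median of all genes on either scale. Higher calls were thus 90.7% of all calls in TPM, beside 48.3% in FPKM and 52.8% after the correction. With an average above 5 FPKM, where fewer genes were tested, 1220 genes were called higher.

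Leaving out 1 library gave 0 to 2 of the 9 lower and 0 to 2 higher, and over all genes 0 to 2633 lower and 0 to 2136 higher. The lone library of a group is then assumed to vary like the other group. Without either knockout replicate 0 genes of the whole table were called by limma (3670 or 4013 lower and 3459 or 3294 higher at an unadjusted p under 0.05), so these fits say nothing of the stability of single genes. Without wild-type replicate 2 MDM2 was still called lower and BAX was not, at -0.89.

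Taken over all tested genes, same-numbered libraries did not deviate together (correlation of deviations -0.09). A single correlation cannot show whether they shared a culture or batch, which the sources used here do not give. With the replicate block 2 of the 9 were called lower and 2 higher, and over all genes 2146 and 1960.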
